A study of Mus musculus with 2 samples.

Results

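The let-7 microRNAs are processed from a family of hairpin genes, and 9 mouse genes of that family that lie outside the clusters with miR-99, miR-100 and miR-125 genes are described here. They are Mirlet7a-1, Mirlet7b, Mirlet7c-2, Mirlet7d, Mirlet7f-1, Mirlet7f-2, Mirlet7g, Mirlet7i and Mir98, chosen by symbol among the 2202 microRNA genes of both deposited tables, and all 9 had counts in both libraries. The tissue was gastrocnemius, a calf muscle of mixed fibre types, from female mice of the strain B6CASTF1/J at an age of 25 days, bred by crossing C57BL/6J with CAST/EiJ. Small RNA (the labels give a size range below 30) was sequenced in 2 libraries of 1 group, and no treatment, genotype or second tissue was included. The labels call the libraries biological replicates from separately numbered females but give both the same donor identifier. SDs therefore measure only the spread between these 2 libraries, and tests compare the 2 libraries with counting as the only error. RNA came from the tissue as a whole, in which fewer cells of a type and less RNA per cell cannot be told apart.

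As background, let-7 was first described as a timing gene of nematode development and is present in nearly all animals with bilateral symmetry. In mammals LIN28 proteins block the processing of let-7 precursors in stem and embryonic cells, and mature let-7 accumulates as tissues differentiate. The mature strand, usually from the 5p arm of the hairpin, is loaded into Argonaute and represses messenger RNAs that pair with its seed, bases 2 to 8. Known targets include Lin28a, Hmga2 and Ras genes, and in skeletal muscle let-7 has been linked to insulin signalling and glucose uptake.

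The mature 5p sequences are shown because the members differ from each other by few bases, and levels could be assigned only as far as those bases allow. All were read from RefSeq on GRCm38.p6, in which the 9 symbols matched. Sequences run 5′ to 3′ with the seed in capitals.
let-7a-5p (Mirlet7a-1): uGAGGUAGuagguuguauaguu
let-7b-5p (Mirlet7b): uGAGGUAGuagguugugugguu
let-7c-5p (Mirlet7c-2): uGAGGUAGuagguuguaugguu
let-7d-5p (Mirlet7d): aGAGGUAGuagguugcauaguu
let-7f-5p (Mirlet7f-1 and Mirlet7f-2): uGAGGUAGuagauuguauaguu
let-7g-5p (Mirlet7g): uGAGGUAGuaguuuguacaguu
let-7i-5p (Mirlet7i): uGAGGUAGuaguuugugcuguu
miR-98-5p (Mir98): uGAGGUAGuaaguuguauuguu

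All 9 genes share the seed GAGGUAG, and their 5p sequences are 22 bases long. They have 8 distinct 5p sequences, which are the same at 15 of the 22 positions. Counted from 1 at the 5′ end, let-7c differs from let-7a by A19G, let-7f by G12A and let-7d by U1A and U16C. The most distant pair of members, Mirlet7d and Mirlet7i, differs by 6 bases. Let-7b, let-7d, let-7g, let-7i and miR-98 each lie in 1 annotated hairpin, so their genes are called single-copy. The other 4 genes are called multi-copy because a mature sequence of theirs is also that of another annotated gene. Mirlet7f-1 and Mirlet7f-2 share let-7f, Mirlet7c-2 shares let-7c with Mirlet7c-1, and let-7a lies in the hairpins of Mirlet7a-1 and Mirlet7a-2. The 3p sequence of Mirlet7a-1 is likewise that of Mirlet7c-2.

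Where the mature sequences are identical, only the bases that follow in the hairpin tell the loci apart. The first 28 bases of the GENCODE M21 hairpin from the 5p start are shown for the genes that share let-7f, let-7c or let-7a, with the first base that distinguishes each from every other annotated hairpin in capitals.
Mirlet7f-1: ugagguaguagauuguauaguuGugggg
Mirlet7f-2: ugagguaguagauuguauaguuUuaggg
Mirlet7c-1: ugagguaguagguuguaugguuuAgagu
Mirlet7c-2: ugagguaguagguuguaugguuuUgggc
Mirlet7a-1: ugagguaguagguuguauaguuuUaggg
Mirlet7a-2: ugagguaguagguuguauaguuuAgagu

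The distinguishing base was base 23 for both let-7f genes and base 24 for the let-7a and let-7c genes, beyond the end of the mature sequence at base 22. In the single-copy members a shorter stretch sufficed, of 9 bases for Mirlet7d, 11 for Mir98 and 17 for Mirlet7b, Mirlet7g and Mirlet7i. The first 18 bases of let-7a and let-7c are the same and lie in 4 annotated hairpins. Only annotated microRNA hairpins were searched, and other copies in the genome were not looked for.

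The members lie in 3 clusters and at 2 lone positions of the mm10 assembly, and each cluster holds let-7 genes only. On chromosome 13, on the reverse strand, Mirlet7a-1 (ENSMUSG00000065421.3) spans chr13:48538179-48538272, Mirlet7f-1 (ENSMUSG00000105621.1) chr13:48537829-48537917 and Mirlet7d (ENSMUSG00000065453.1) chr13:48536012-48536114. All 3 lie within exon sequence of the lincRNA gene 6720427I07Rik. Mirlet7f-1 is also covered on the opposite strand by the microRNA gene model Gm24111. On chromosome 15, Mirlet7c-2 (ENSMUSG00000065608.1) spans chr15:85706603-85706697 and Mirlet7b (ENSMUSG00000065564.1) chr15:85707319-85707403, on the forward strand within an exon of the non-coding gene Lncppara.

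On the X chromosome, Mirlet7f-2 (ENSMUSG00000065602.1) spans chrX:151912346-151912428 and Mir98 (ENSMUSG00000065536.2) chrX:151913214-151913321, both on the forward strand. They lie in intron sequence of Huwe1, which encodes a ubiquitin ligase. Mirlet7g (ENSMUSG00000065440.1) spans chr9:106178840-106178927, on the forward strand, in intron sequence of Wdr82, which encodes a subunit of histone methyltransferase complexes. Mirlet7i (ENSMUSG00000065406.3), on the reverse strand at chr10:122985640-122985724, lies within an exon of the transcribed pseudogene D630033A02Rik. No other annotated microRNA gene lay within 10000 bases of these genes on the same strand.

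Levels are given as CPM, counts on the strand of a gene scaled to a library total of 1000000. That total was 1573213 counts in replicate 1 and 5429127 in replicate 2. Counts belong to whole hairpins, so the arms are not told apart. Intervals are exact binomial intervals, which take reads as independent and cover counting error only. No molecular identifiers were used, so reads copied from the same molecule cannot be told apart. Marker genes differed between the libraries. All 9 markers of striated muscle had counts in both, with a summed share of 3.64% in replicate 1 and 7.50% in replicate 2. Mir206, a microRNA of skeletal muscle, made up 95.9% and 96.6% of that sum, at 34864 and 72482 CPM, and the other 8 markers summed to 1498 and 2513 CPM. Among them Mir133b had 27.97 and 26.89 CPM and Mir133a-2 had 7.63 and 2.03 CPM, so the markers did not move as one. Mir133a-2 rests on only 12 and 11 counts. Reads aligned to several places entered no gene's count, so a low level of a marker gene need not mean low expression. How many reads the marker genes lost in this way was not tested. The 5 annotated markers of smooth muscle and fibroblasts held 13.3% and 6.34%, of which Mir143 made up 96.1% and 93.5%. The 2 of endothelium held 9.33% and 10.3%, of which Mir126a made up 99.9993% and 99.9998%. Erythroid markers held 0.270% and 0.0587%, white blood cell markers 0.270% and 0.200%, glial markers 0.159% and 0.0758%, and epithelial markers 0.0430% and 0.0238%. Single genes led these sums too. Mir451a made up 78.9% and 80.6% of the erythroid sum and Mir155 32.7% and 39.4% of the white blood cell sum. Mir338 made up 99.5% and 98.9% of the glial sum and Mir203 83.9% and 91.3% of the epithelial sum. Of 6 annotated neuronal markers, Mir124a-1, Mir124a-2, Mir124a-3 and Mir9-2 had no count in either library, and the list summed to 0.636 and 0.553 CPM.

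The 9 let-7 genes together held a similar share of the microRNA counts in both libraries. They had 213822 counts in replicate 1, a share of 13.59% (exact binomial 95% interval 13.54 to 13.65), and 753705 in replicate 2, a share of 13.88% (13.85 to 13.91). The mean was 13.7% ± 0.206 (SD, n = 2), and the share was slightly higher in replicate 2, with intervals that did not overlap. Mirlet7g and Mirlet7i alone made up 69.3% of the members' counts in replicate 1 and 68.5% in replicate 2. The 4 multi-copy genes made up 4.10% and 3.87%. By mean level, 4 members were among the 20 highest microRNA genes and 6 among the 50 highest. The median member had 4586 CPM, against 76.9 CPM over the 364 genes with at least 10 counts in both libraries together. These shares and places rest on counts that leave out reads aligned to several places, and may differ from those in the tissue.

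The single-copy genes outside the X chromosome led the order. Mirlet7g had 52119 CPM in replicate 1 and 52678 in replicate 2, averaging 52398 ± 395 (SD, n = 2), and ranked 7 of 2202 genes. Mirlet7i had 42078 and 42390 CPM, a mean of 42234 ± 221, and ranked 9. Both are expressed from lone hairpins, and the 5p sequences differ from that of let-7a at base 12 by the same substitution, G12U. The means differed by 10165 CPM, more than the spread of either gene, with Mirlet7g higher in both libraries.

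Mirlet7b had 17650 CPM in replicate 1 and 17682 in replicate 2, averaging 17666 ± 22.4. Mirlet7d, the member whose mature sequence begins with A, had 15733 and 17969 CPM, a mean of 16851 ± 1581. Mirlet7b was higher in replicate 1 and Mirlet7d in replicate 2. The means differed by 814 CPM, less than the SD of Mirlet7d, so these neighbours in the order did not differ beyond their spread.

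The X chromosome pair followed. Mirlet7f-2 had 4629 and 4543 CPM, a mean of 4586 ± 60.6. Mir98, which carries the let-7 seed under another name, had 2758 and 2735 CPM, a mean of 2746 ± 16.6, lower than Mirlet7f-2 in both libraries.

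The other 3 multi-copy genes were the lowest. Mirlet7c-2 had 613 CPM in replicate 1 (exact 95% interval 575 to 653) and 507 in replicate 2 (488 to 526), a mean of 560 ± 75.2. Mirlet7a-1 had 205 (183 to 228) and 164 CPM (154 to 175), a mean of 184 ± 28.6. Mirlet7f-1 had 130 (112 to 149) and 159 CPM (148 to 170), a mean of 144 ± 20.6. Mirlet7a-1 was the higher of the last 2 in both libraries, but in replicate 2 their intervals overlapped. Mirlet7a-1 ranked 147 and Mirlet7f-1 156 of 2202 genes, so the members' mean levels spanned ranks 7 to 156. Of the 2202 genes, only 520 had a count in replicate 1 and 614 in replicate 2. Dividing each level by the length of its hairpin, from 83 to 108 bases, left the order of the 9 genes as it was.

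**Figure D1:**
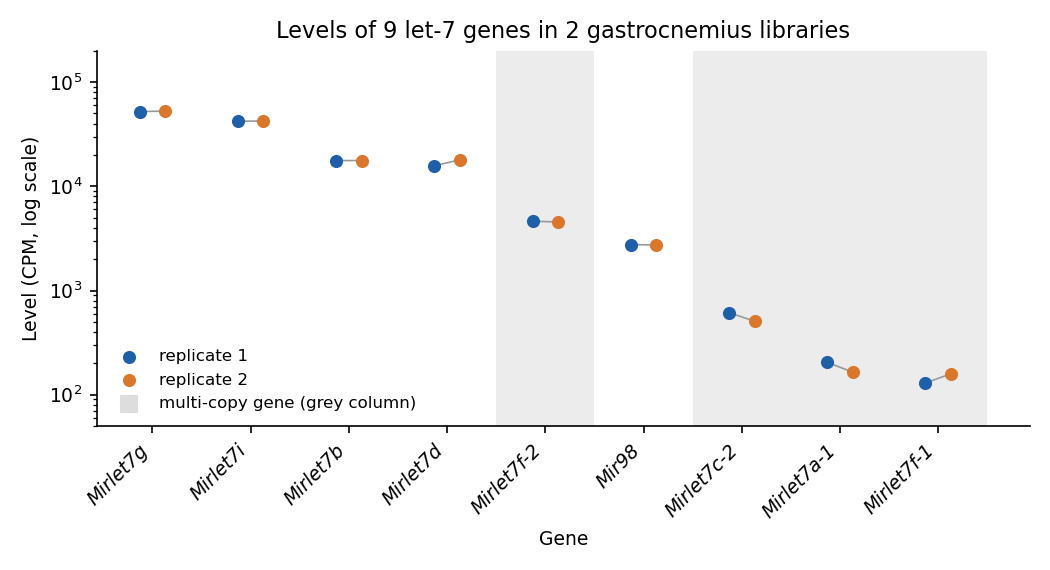
Level in CPM (log axis) of each of the 9 let-7 genes in replicate 1 (blue) and replicate 2 (orange), in order of their mean, with multi-copy genes on grey. The points of each gene lie close together, from 52119 and 52678 CPM for Mirlet7g down to 130 and 159 CPM for Mirlet7f-1.

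Single-copy and multi-copy members differed in level, with an overlap at the X chromosome pair. The 5 single-copy genes ranged from 2746 to 52398 CPM in mean level, with a median of 17650 CPM in replicate 1 and 17969 in replicate 2. The 4 multi-copy genes ranged from 144 to 4586 CPM, with medians of 409 and 336 CPM. The difference of the median log2 CPM, multi-copy minus single-copy, was -5.64 in replicate 1 and -5.96 in replicate 2, or -5.80 ± 0.23 on average (SD, n = 2). Of the multi-copy genes, 1, Mirlet7f-2, lay above a single-copy gene, Mir98. Reads aligned to several places were tallied apart and given to no gene. This tally held 68.6% of replicate 1's reads and 69.7% of replicate 2's, without saying how many came from let-7 genes, and their part in these differences was not tested.

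Within the clusters, neighbouring hairpins were counted at very unequal levels. In the chromosome 13 cluster Mirlet7d held 97.9% of the counts in replicate 1 (exact 95% interval 97.7 to 98.1) and 98.2% in replicate 2 (98.15 to 98.31). Mirlet7a-1, 2064 bases from Mirlet7d, had a level 76.8-fold lower than it in replicate 1 and 109-fold lower in replicate 2. The log2 ratio was -6.26 and -6.77. Mirlet7f-1, 1714 bases from Mirlet7d, was 121-fold and 113-fold lower, with log2 ratios of -6.92 and -6.82. Mirlet7d is the one gene of the 3 whose 5p sequence is found at a single annotated locus.

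In the chromosome 15 cluster Mirlet7b held 96.6% (96.4 to 96.8) and 97.2% (97.1 to 97.3) of the counts. Mirlet7c-2, 621 bases away, had a level 28.8-fold lower than Mirlet7b in replicate 1 and 34.9-fold lower in replicate 2, log2 ratios of -4.85 and -5.12. The mature sequences of this pair differ by 1 base, A17G from let-7c to let-7b.

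The X chromosome cluster went the other way. Mirlet7f-2, which shares its mature sequence with Mirlet7f-1, held 62.7% (61.8 to 63.5) of the counts in replicate 1 and 62.4% (61.9 to 62.9) in replicate 2, and Mir98 the rest. The multi-copy gene was thus 1.68-fold and 1.66-fold higher than its single-copy neighbour 785 bases away, log2 ratios of 0.75 and 0.73. Counted over the clusters, the multi-copy gene had the lower level in 3 of 4 pairs. The 2 pairs of the chromosome 13 cluster share Mirlet7d and are not independent.

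**Figure D2:**
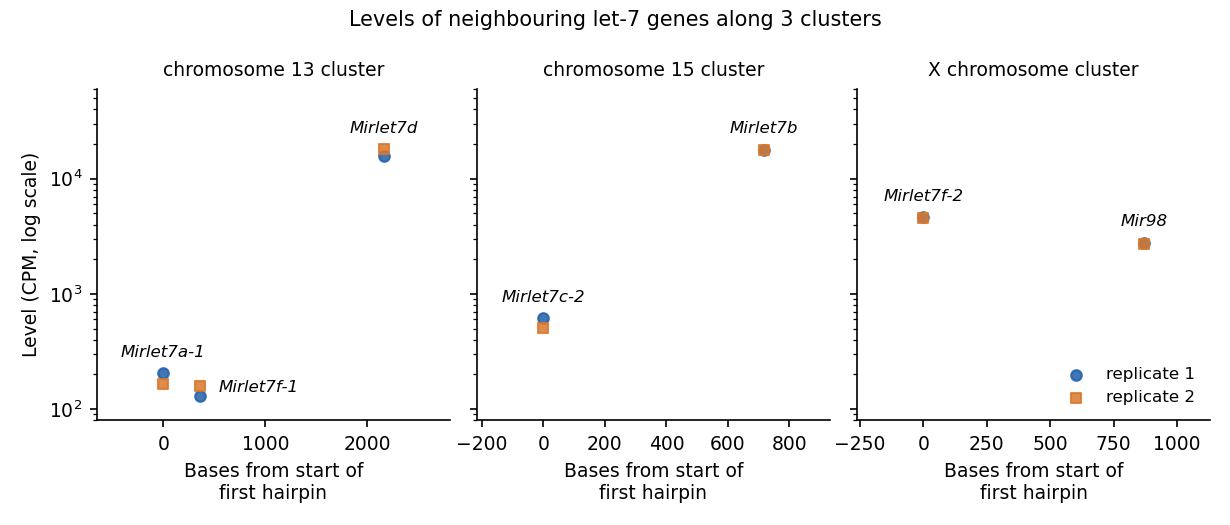
Level in CPM (log axis) of the genes of each cluster against the distance in bases from the start of the first hairpin in the direction of transcription, in replicate 1 (blue circles) and replicate 2 (orange squares). Mirlet7d and Mirlet7b stand far above their neighbours, at 15733 and 17969 CPM and at 17650 and 17682 CPM, and on the X chromosome Mirlet7f-2 lies above Mir98.

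Genes with the same mature sequence were also counted unequally. The Mirlet7f-1 hairpin was counted at 130 and 159 CPM and that of Mirlet7f-2 at 4629 and 4543 CPM, a level 35.7-fold and 28.6-fold higher. Both are distinguished from all other annotated hairpins at base 23, where Mirlet7f-1 continues with G and Mirlet7f-2 with U, as the lines above show. Their 3p sequences are each found in 1 annotated hairpin. Of the genes that share let-7c, Mirlet7c-2 was 2.50-fold higher than Mirlet7c-1 in replicate 1 and 2.48-fold in replicate 2. Of those that share let-7a, Mirlet7a-1 exceeded Mirlet7a-2 by 1.53-fold in mean level. These are counts given to each hairpin, from either arm. They are not levels of let-7f, let-7c or let-7a, since a read of the shared 22 bases alone matches both hairpins.

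**Figure D3:**
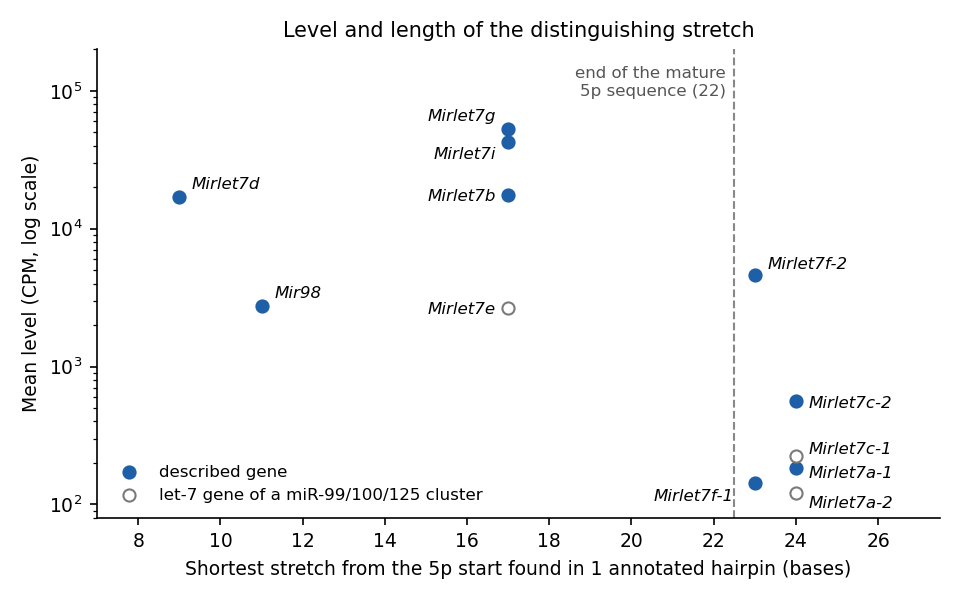
Mean level in CPM (log axis) against the shortest stretch in bases, counted from the 5p start, that lies in 1 annotated hairpin only, for the 9 members (filled) and the 3 let-7 genes of miR-99, miR-100 and miR-125 clusters (open). Of the genes right of the dashed line, which need 23 or 24 bases, Mirlet7f-2 has 4586 CPM and the others lie at or below 560 CPM. The genes drawn left of it lie at 2650 CPM or above. The further let-7 genes Mir7j and Mir7k, not drawn, need 10 and 17 bases and had mean levels of 17.5 and 0 CPM.

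The let-7 genes inside miR-99, miR-100 and miR-125 clusters also differed in level. Mirlet7e, whose mature sequence lies in 1 annotated hairpin, had 2649 and 2651 CPM, while Mirlet7c-1 had 245 and 204 CPM and Mirlet7a-2 had 133 and 108 CPM. The 3 genes held 0.300% ± 0.00457 (SD, n = 2) of the counts, against 13.7% for the 9 genes outside. Mir7k and Mir1961, further annotated genes whose mature sequence has the seed GAGGUAG, had no count in either library, which allows up to 1.91 CPM in replicate 1 and 0.553 CPM in replicate 2.

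Strand-specific counting decided the level of Mirlet7f-1 and changed that of no other member by more than 7 counts. With strand ignored, Mirlet7f-1 was listed at 0 counts in both libraries, where it had 204 and 862 counts on its own strand. Mirlet7e was listed at 0 likewise. Of the 9 members, Mirlet7b alone had reads on the opposite strand, 2 in replicate 1 and 7 in replicate 2, beside 27767 and 95995 on its own.

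Between the libraries Mirlet7d, Mirlet7c-2, Mirlet7a-1 and Mirlet7f-1 differed by 1.14-fold to 1.25-fold, and the other 5 members by less. The levels were compared with a two-sided exact binomial test on the counts of each gene, with the library totals as odds and Benjamini-Hochberg adjustment over 364 genes. Of the 9 members, 5 passed at an adjusted p under 0.05, and over all genes tested 45.3% passed. Higher in replicate 2 were 3 members, against 15.1% of all genes, and higher in replicate 1 were 2, against 30.2%. Taken as replicate 2 over replicate 1, the median log2 ratio was 0.00 over the members and -0.13 over all genes tested. The test compares these 2 libraries, not conditions, and holds counting as the only error.

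Mirlet7d was 1.14-fold higher in replicate 2 (log2 ratio 0.19, 95% interval 0.17 to 0.21, exact binomial test, adjusted p = 1.3e-78). Mirlet7f-1 in the same cluster was 1.22-fold higher there (0.29, 0.07 to 0.52, exact test, adjusted p = 0.0219), and Mirlet7g 1.01-fold (0.02, 0.0042 to 0.0266, exact test, adjusted p = 0.0173). Mirlet7a-1 was 1.25-fold higher in replicate 1 (log2 ratio -0.32, -0.50 to -0.13, exact test, adjusted p = 0.00262). Mirlet7c-2 was 1.21-fold higher in replicate 1 (-0.27, -0.38 to -0.17, exact test, adjusted p = 2.3e-06), while its neighbour Mirlet7b had a log2 ratio of 0.00 (-0.02 to 0.02). Mirlet7i at 0.01 (-0.0018 to 0.0231), Mirlet7f-2 at -0.03 (-0.06 to 0.01) and Mir98 at -0.01 (-0.06 to 0.04) did not pass.

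**Figure D4:**
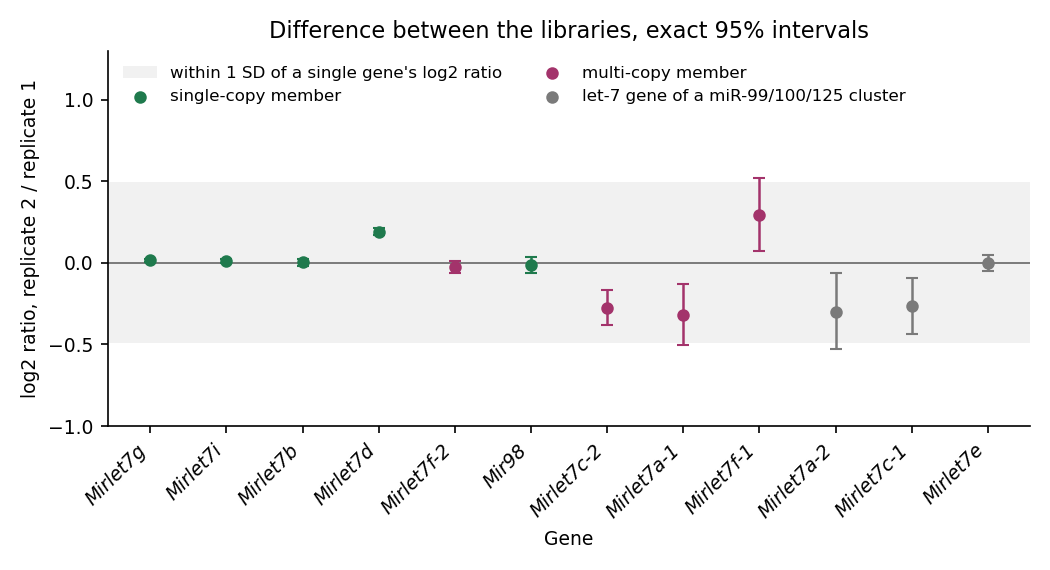
Log2 ratio of replicate 2 over replicate 1 for the 9 members and the 3 let-7 genes of miR-99, miR-100 and miR-125 clusters, with exact 95% intervals and a grey band of 1 SD of a single gene's ratio, 0.49. All 12 points lie inside the band, and the 4 genes that hold let-7a or let-7c lie between -0.32 and -0.26.

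No member's log2 ratio went beyond 0.49, the SD of a single gene's log2 ratio. That SD corresponds to a common biological coefficient of variation of 24.6%. It is 1 value that edgeR estimated over 324 genes, each with only 1 residual degree of freedom, and may not hold for a single gene. The scaling moved these ratios: with TMM factors all of them rose by 0.08 and with DESeq2 size factors by 0.13, so that 7 members passed as higher in replicate 2 with either. Of all genes that passed, 33.3% were higher in replicate 2 with library totals, 45.8% with TMM and 54.0% with DESeq2 factors. Shares within a cluster do not depend on the scaling. Mirlet7c-2 held 3.36% (exact 95% interval 3.15 to 3.57) of the counts of its cluster in replicate 1 and 2.79% (2.69 to 2.89) in replicate 2. Mirlet7a-1 held 1.27% (1.14 to 1.42) and 0.898% (0.840 to 0.959) of its own. Mirlet7f-1 held 0.807% (0.700 to 0.925) and 0.868% (0.811 to 0.928). The intervals of Mirlet7c-2 and Mirlet7a-1 did not overlap between the libraries, and those of Mirlet7f-1 did.

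The genes of let-7a and let-7c in the other clusters had ratios of a similar size. Mirlet7c-1 had a log2 ratio of -0.26 (-0.43 to -0.09) and Mirlet7a-2 of -0.30 (-0.53 to -0.06), both higher in replicate 1 by the exact binomial test, at adjusted p of 0.00598 and 0.0253, while Mirlet7e had 0.00 (-0.05 to 0.05). The members' summed level had a log2 ratio of 0.03 (0.02 to 0.04). Over these 2 libraries, the genes with the closest ratios among 66 others with a mean of at least 1000 CPM were Mir351 at 0.02, Mir191 at 0.02 and Mir196a-2 at 0.01. Mir206 and Mir143, which carry the sums of the striated muscle list and of the smooth muscle and fibroblast list, had log2 ratios of 1.06 and -1.11. By the same test replicate 2 was the higher library for 5 of the 9 striated muscle markers and the lower one for 2. For the 5 smooth muscle and fibroblast markers it was the higher library for 1 and the lower one for 2. Over all genes tested, 15.1% were higher in replicate 2 and 30.2% were higher in replicate 1. The part of the marker differences in the ratios of single let-7 genes was not tested.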

How the data were processed

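Per the labels, microRNA sequencing reads were assigned on mm10, and per the deposited readme text the annotation was GENCODE M21. No aligner, counting tool or filter is named in the sources used here. The authors deposited raw counts per microRNA gene for either strand, the gene's strand and the opposite strand, without a header; the strand of each column was read from the values. The gene-strand column was used, and 4 tally rows stayed out of totals. Identifiers were matched to GENCODE M21, the source of positions and hairpin sequences, and mature sequences were read from RefSeq. The members, lists and tests were chosen with earlier results of these data known.

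Named were the members, annotated genes with their seed, annotated microRNA genes within 10000 bases, and the 3 genes of at least 1000 CPM closest in ratio. Mir7j, a let-7 gene whose seed differs, was named for its level only. In ratios between neighbours 0.5 counts were added. The exact binomial test, run on genes with 10 or more counts over both libraries, was tested on simulated data. Those data held counting error alone, as the test assumes, so they do not show how it behaves under further spread between libraries. With 1 group, no contrast between conditions could be fitted. TMM (edgeR 4.0.16) and DESeq2 1.42.0 factors, computed in R 4.3.3 from the tested genes, and the dispersion of 324 genes of at least 2 CPM in both libraries gave alternatives and spread. Other steps used Python 3.11.15 with scipy 1.17.1, numpy 2.4.6, pandas 2.3.3 and matplotlib 3.10.9. Other columns, denominators, filters, offsets, copy definitions and each replicate alone were tried.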

Additional observations from a re-analysis of the deposited data

Results flagged for a closer look

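Reads outside the counts used were of 2 kinds. On the opposite strand of Mirlet7b, replicate 2 had 7 reads, above the floor of 3 counts set for this list, and replicate 1 had 2. The tally of reads aligned to several places, which entered no gene's count, amounted to 68.6% of replicate 1 and 69.7% of replicate 2.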

How the results depend on the processing

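The members' share of 13.7% was 17.9% with the either-strand column, whose total is smaller, and 3.24% of all aligned reads, and the levels of the 9 genes moved with these denominators. Without replicate 1, Mirlet7b and Mirlet7d exchanged places in the order. Without either replicate it ranged from 13.6% to 13.9%. Scaling moved the calls between libraries: with TMM 9 members passed, 7 of them higher in replicate 2, and with DESeq2 factors 8 passed, 7 higher in replicate 2 and 1 higher in replicate 1. Over all genes DESeq2 factors called 80 higher in replicate 1 and 94 higher in replicate 2, and TMM 90 and 76, against 110 and 55 with library totals. The log2 ratio of Mir98 turned from -0.01 to 0.0667 with TMM and 0.11 with DESeq2 factors, and that of Mirlet7f-2 from -0.03 to 0.0521 and 0.10; both follow from the added shift. Mirlet7a-1 no longer passed with DESeq2 factors, at a log2 ratio of -0.19. With the either-strand column Mirlet7b and Mirlet7i also passed, as higher in replicate 2, and Mirlet7f-1, listed at 0, gave no ratio. Minimums of 1 and 50 summed counts left the members' calls at 5. The difference of medians and the ratios between neighbours kept their direction under all alternatives that gave a value. Defining copies by a shared stretch of 20 bases put all 9 members in the same classes, so it could not change the difference. Offsets of 0 and 5 counts are small beside the counts of these genes, the lowest being 204, so they could hardly turn a ratio. Replicate 1, at 1573213 counts, limits the precision of Mirlet7f-1 and Mirlet7a-1, which rest on 204 and 322 counts there. No paired analysis was possible because all libraries form 1 group.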
